A study of Mus musculus with 2 samples.

Results

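Isolated Runx3 peaks were those autosomal peaks whose midpoint lay more than 100 kb from the midpoint of both the previous and the next peak on the same chromosome, with the first and last peak of each chromosome left out. The rule gave 1289 isolated peaks among 19335 autosomal peaks, 6.67% (exact binomial 95% interval 6.32 to 7.03%), and among 19647 peaks in all. The members were chosen by the distances between peaks, so every value on spacing is a description and supports nothing further. The other 18046 autosomal peaks comprised 4984 with no peak within 100 kb on 1 side only, 13024 with a peak within 100 kb on both sides, and 38 first or last peaks.

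The list came from chromatin immunoprecipitation sequencing of natural killer (NK) cells from the spleen of ICR mice, an outbred strain. The mice, described as wild type, had been injected 2 times, 2 days apart, with interleukin-15 bound to its receptor alpha chain (IL-15/Ra), and NKp46+ cells were sorted after negative selection. A polyclonal antibody to Runx3, made in house, gave 1 library, and non-immune rabbit serum (NIS) gave 1 control library. Both came from animals treated with IL-15/Ra, and each immunoprecipitation used 40000000 cells, per the labels, and the number of animals pooled is not stated. Only the Runx3 peak list was used here, and the labelled cell type could not be checked against markers, since the list holds no genes and no expression values.

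Runx3 is a Runt-domain transcription factor that binds DNA as a heterodimer with Cbfb, and it serves in cytotoxic lymphocytes, NK cells among them. Runx factors act at promoters and at distant enhancers, and in lymphocytes many active genes are served by several enhancers that lie close together. IL-15 drives the survival, proliferation and activation of NK cells. The list alone does not say which gene a peak serves or whether Runx3 contacts the DNA there directly.

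The list gives the position and width of each peak in the mouse build mm9, with no height, score, strand or gene. The genome sequence and the gene annotation of that build were not used here, so no sequence is printed and no peak is assigned to a gene, exon or intron. With 1 Runx3 library there is no replicate, and peaks of 1 library are not replicates of a condition. No test was therefore made, and the intervals below cover counting error only, with each peak taken as independent of the others. The number of reads in a peak is unknown. Stretches where reads could not be aligned were not marked, so a long distance or a bin without a peak need not mean that Runx3 was absent there. The name of the deposited list holds the words "to small", so it may be a reduced set of peaks, and every count and distance below holds for the peaks listed: a peak left out of the list could make its neighbours appear isolated.

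The isolated peaks stood far from their neighbours and far from one another. The distance to the nearest other peak had a median of 169 kb, with an interquartile range of 124 to 303 kb and a central 90% of 105 to 807 kb. On the farther side the median was 519 kb, and the distances to both sides added up to a median of 733 kb. The farther neighbour was a median 2.21 times as distant as the nearer one, with an interquartile range of 1.43 to 4.41 times. By definition the farther distance is at least equal to the nearer, and the ratio was not compared with a reference. No other peak lay within 200 kb of 515 members (40.0%), within 500 kb of 145 (11.2%), within 1000 kb of 43 (3.34%) or within 2000 kb of 11 (0.853%).

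When each position was allotted to its nearest peak, the isolated peaks accounted for 811 Mb of the 2394 Mb between the first and last peaks of the autosomes. This was 33.9% of the span for 6.67% of the peaks, as the rule by distance implies. By contrast, the isolated peaks themselves covered 875 kb, 6.68% of the base pairs in autosomal peaks, which is the same share as their number.

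The 5 members with the most distant nearest neighbour lay on chromosomes 1, 14, 4, 16 and 12. The most remote, at chr1:103798746-103799215, measured 470 bp, with its neighbours 3772 kb and 3761 kb away. A peak of 1095 bp at chr14:83896009-83897103 had its neighbours at 3909 kb and 3240 kb. These remote sites were not alike in width. The third, at chr4:66488624-66488980, measured only 357 bp and had its neighbours at 2968 kb and 3583 kb. Peaks of 421 bp at chr16:81437727-81438147 and of 499 bp at chr12:63095284-63095782 followed, with their nearest neighbours at 2831 kb and 2775 kb. Of the 5, then, 4 were narrower than the median of all autosomal peaks, 605 bp, and 1 was wider than 1000 bp.

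The limit of 100 kb fell in a range of distances where peaks were frequent. Within 5 kb above it lay the nearest-neighbour distances of 70 members, and within 5 kb below it those of 81 other peaks. The members closest to the limit were a peak of 563 bp at chr16:33584242-33584804, with a neighbour at 100.079 kb, and a peak of 540 bp at chr6:54444834-54445373, with one at 100.148 kb. The nearest peaks outside it were one of 707 bp at chr16:50732545-50733251, with a neighbour at 99.9985 kb, and one of 275 bp at chr11:83005126-83005400, with a neighbour at 99.842 kb. No break in spacing separated the members from the rest.

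Width was not used by the rule. In the middle of the distribution, isolated peaks and the others differed little. Their median width was 608 bp (95% interval of the median from order statistics 591 to 622 bp), against 604 bp (601 to 608 bp) in the other autosomal peaks, a ratio of 1.01. The interquartile range was 496 to 790 bp in isolated peaks and 507 to 779 bp in the others. Peaks that were isolated on 1 side only had a median of 605 bp (597 to 611 bp), and the 1632 peaks that bounded an isolated peak without being isolated had one of 603 bp (590 to 616 bp).

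**Figure D1:**
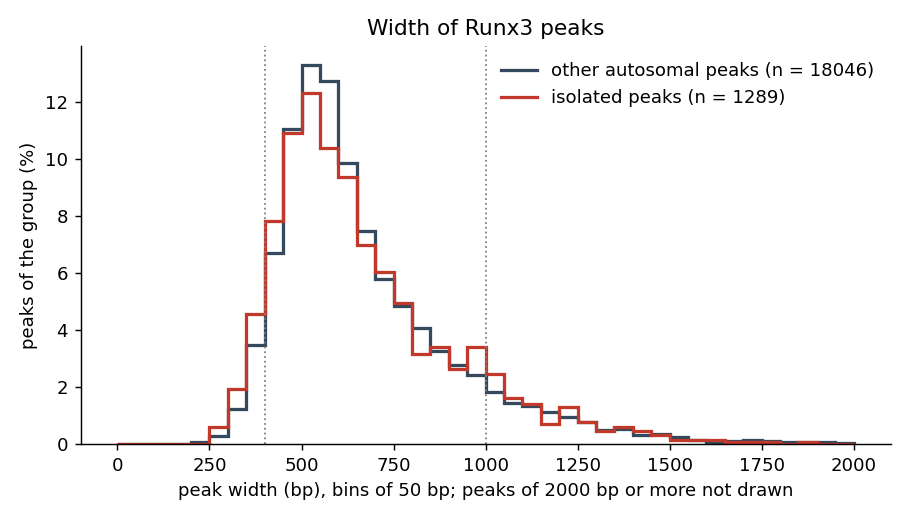
Distribution of peak width (x axis, bp, in bins of 50 bp) as the percentage of isolated peaks (red) and of the other autosomal peaks (dark blue) in each bin; dotted lines mark 400 and 1000 bp, and peaks of 2000 bp or more are not drawn. The curves run close together, with the red curve above the blue one from 250 to 450 bp and lower at its summit.

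The narrow edge of the distribution differed more than its middle. Peaks narrower than 400 bp numbered 92 among the isolated peaks, 7.14% (5.79 to 8.68%), and 914 among the others, 5.06% (4.75 to 5.39%). Over all autosomal peaks the share was 5.20%. The ratio of the shares was 1.41, and their intervals did not overlap. This limit and the comparison of narrow peaks were chosen after the widths were seen. The excess was spread over the chromosomes: narrow peaks were the more frequent among isolated peaks on 14 of 19 autosomes and the less frequent on 5, and the ratio lay between 1.35 and 1.47 when any 1 autosome was left out.

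At the wide end the intervals of the groups overlapped, and the 95th percentile of width was 1206 bp in isolated peaks and 1186 bp in the others. Peaks wider than 1000 bp numbered 146 among the isolated peaks, 11.3% (9.65 to 13.2%), and 1891 among the others, 10.5% (10.04 to 10.9%), and the share over all autosomal peaks was 10.5%. Wide peaks were the more frequent among isolated peaks on 11 autosomes and the less frequent on 8. The spread of log2 width was slightly larger in isolated peaks, with an SD of 0.51 over 1289 peaks against 0.48 over 18046.

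The widest isolated peak, at chr2:77781559-77785180, was 3622 bp wide, with its neighbours 1270 kb and 797 kb away. It was followed by a peak of 2725 bp at chr7:7250843-7253567, which had a neighbour at 111 kb on one side and none for 6152 kb on the other. A wide peak could thus border a long stretch without a listed peak. The next were a peak of 2660 bp at chr5:109985736-109988395, one of 2624 bp at chr13:17895047-17897670 and one of 2061 bp at chr5:68237505-68239565. Their nearest neighbours stood at 309, 109 and 456 kb. The narrowest members measured 250 bp at chr15:53177595-53177844, 253 bp at chr1:85043260-85043512 and 264 bp at chr6:53018143-53018406. These 3 had their nearest neighbours at 146, 132 and 103 kb, below the median distance of the members, so the narrowest members were not the most remote.

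Among the isolated peaks, the median width was slightly lower in the more distant. The 774 members with a neighbour at 100 to 200 kb had a median width of 619.5 bp (603 to 639 bp), and the 515 members beyond 200 kb had one of 586 bp (562 to 613 bp), a ratio of 0.946. The share narrower than 400 bp was 6.33% (4.72 to 8.28%) in the first group and 8.35% (6.11 to 11.1%) in the second, and that wider than 1000 bp was 12.4% (10.2 to 14.9%) and 9.71% (7.29 to 12.6%). Wide peaks did not become steadily rarer with distance: beyond 1000 kb they numbered 9 of 43 members, 20.9% (10.04 to 36.0%), the highest share of the distance classes. The intervals below and above 200 kb overlapped for each of these 3 measures, and no test of the differences was made. Beyond 500 kb the median was 597 bp (545 to 626 bp, 145 peaks), so the medians did not fall steadily with distance.

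Among peaks that were not isolated, those with a nearest neighbour at 10 to 100 kb had a median width of 610 bp (605 to 615 bp) over 8216 peaks, and 4.69% (4.24 to 5.17%) were narrower than 400 bp. In the class next to the limit, 50 to 100 kb, the median was 611 bp (600 to 626 bp) over 1593 peaks, with 4.90% (3.89 to 6.07%) narrow and 12.6% (11.03 to 14.3%) wide. A raised share of narrow peaks appeared at both extremes of spacing: it was 7.67% (6.47 to 9.02%) among the 1759 peaks with a neighbour within 1 kb. There the median width was also low, 570 bp (562 to 579 bp), and wide peaks were rare at 3.81%, whereas the isolated peaks kept both their median and their wide peaks.

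**Figure D2:**
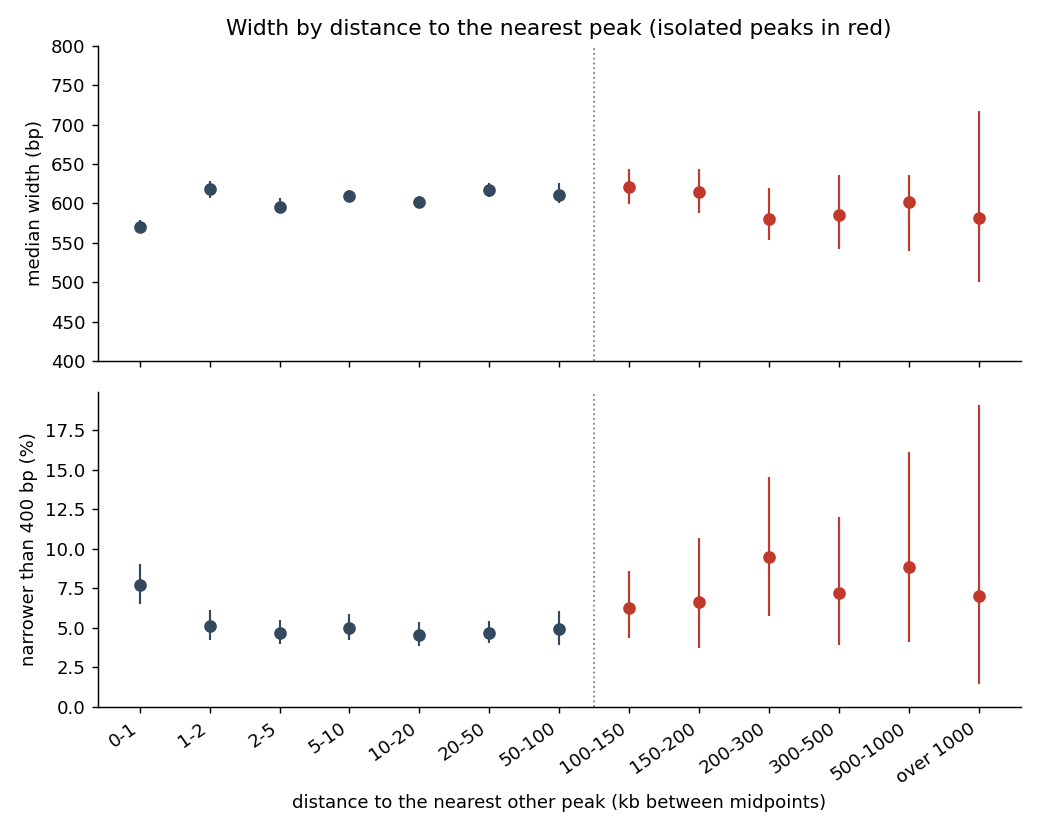
Median peak width (upper panel, bp; axis from 400 to 800) and percentage of peaks narrower than 400 bp (lower panel) by distance to the nearest other peak (x axis, kb), for isolated peaks (red) and others (dark blue), with 95% intervals. The lowest median and a raised share of narrow peaks lie within 1 kb, and all 6 red points of the lower panel lie above the blue points between 1 and 100 kb, with wide intervals.

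Isolated peaks made up different shares of the peaks on different autosomes. The share was highest on chromosome 18, where 58 of 532 peaks were isolated (10.9%, 8.38 to 13.9%), and it was 10.6% on chromosome 3 (88 peaks), 10.2% on chromosome 13 (81 peaks) and 9.15% on chromosome 1 (111 peaks). It was lowest on chromosome 7, where 44 of 1423 peaks were isolated (3.09%, 2.26 to 4.13%), and it was 3.79% on chromosome 11 (63 of 1662) and 4.55% on chromosome 17 (46 of 1011). For these 7 chromosomes, 4 above and 3 below, the interval left out the 6.67% of all autosomes, and the other 12 lay between 5.48 and 8.59%. Low shares went with crowded chromosomes, as the rule would make them: over the 19 autosomes, which share 1 library, the share isolated and the number of peaks per Mb of span had a rank correlation (Spearman's rho) of -0.93, given as a description.

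Counted per Mb of span rather than per peak, the highest autosome had 2.35 times the isolated peaks of the lowest. For all peaks per Mb this ratio was 2.57. All autosomes together had 0.538 isolated peaks per Mb. On 17 of 19 autosomes the exact Poisson interval included this value, but with 38 to 111 isolated peaks per chromosome these intervals were wide. Chromosome 11 carried 14.0 peaks of all kinds per Mb and chromosome 3 carried 5.44, but their isolated peaks stood at 0.531 (0.408 to 0.679) and 0.578 (0.464 to 0.713) per Mb. The 2 exceptions were chromosome 13, with 0.694 (0.551 to 0.862) per Mb, and chromosome 7, with 0.295 (0.215 to 0.396). The rank correlation of isolated peaks per Mb with all peaks per Mb was -0.25 over the 19 autosomes.

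Chromosome 7 stood apart with 0.548 times the isolated peaks per Mb of all autosomes. It did not have the most peaks per Mb (9.55, the fourth highest). Of its 1 Mb bins, 31.3% held no peak, in the upper part of the 16.0 to 36.2% of the autosomes. On chromosomes 11, 17 and 19, which had more peaks per Mb, 16.0, 24.7 and 16.9% of bins held none. On chromosomes 3, 8 and 16, 31.4, 31.0 and 31.25% held none, with 0.578, 0.586 and 0.561 isolated peaks per Mb. On chromosomes 12 and 14 it was 30.8 and 36.2%, with 0.438 and 0.462 isolated peaks per Mb. Whether bins without a peak went with the density of isolated peaks was not tested. The isolated peaks of chromosome 7 fell in 38 bins. Their median width of 628.5 bp (532 to 677 bp) lay close to the 612 bp (601 to 626 bp) of its other peaks.

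**Figure D3:**
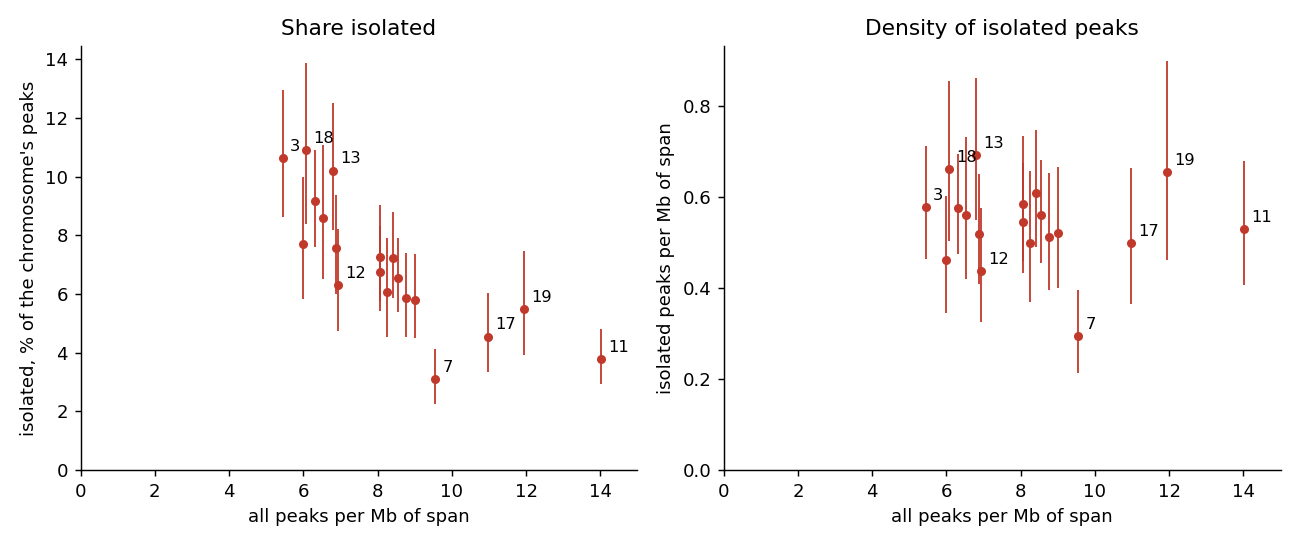
Percentage of a chromosome's peaks that were isolated (left) and isolated peaks per Mb of span (right) against all peaks per Mb of span, 1 point per autosome with its 95% interval (exact binomial left, exact Poisson right); numbers name selected chromosomes. The share is highest on chromosome 18 (10.9%) and lowest on chromosome 7 (3.09%), which are not the sparsest and the most crowded autosomes. On the right, the intervals of all autosomes except chromosomes 7 and 13 include 0.538 per Mb.

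By chromosome, the widths of isolated peaks did not stand apart either. Their median lay above that of the chromosome's other peaks on 12 autosomes and below it on 7. The largest ratio was on chromosome 11, with 691 bp (583 to 726 bp) in isolated peaks and 613 bp (600 to 621 bp) in the others, and the smallest was on chromosome 8, with 579 bp (518 to 629 bp) and 622.5 bp (607 to 639 bp). The intervals of the medians overlapped on all 19 autosomes. With 38 to 111 isolated peaks per chromosome, differences of the size seen on chromosomes 8 and 11 lay within these intervals.

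Along the chromosomes, isolated peaks were spread more evenly than the others. In the part of each span before its middle lay 653 isolated peaks, 50.7% (47.9 to 53.4%), against 7372 of the other peaks, 40.9%. Position was not part of the rule, but it is tied to it through local crowding: when each span was cut into 10 equal segments, the last 2 held 14.1 and 15.2% of the other peaks, the highest values of any segment. Of the isolated peaks, these segments held 9.31% (7.78 to 11.03%) and 10.6% (8.93 to 12.4%). Over the 10 segments the isolated peaks ranged from 8.22 to 11.7%, and the others from 6.67 to 15.2%.

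**Figure D4:**
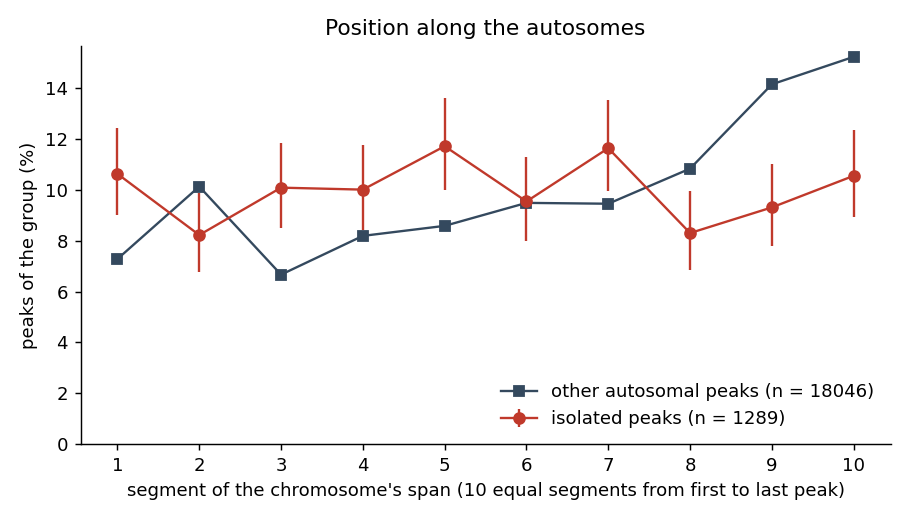
Percentage of isolated peaks (red, with exact binomial 95% intervals) and of the other autosomal peaks (dark blue) in each of 10 equal segments of the chromosome's span, from the first to the last peak. The red points stay between 8.22 and 11.7%, whereas the blue points rise to 14.1 and 15.2% in the last segments.

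In bins of 1 Mb, isolated peaks occurred in 956 of the 2411 bins between the first and last autosomal peaks, 39.7%, or in 54.0% of the 1771 bins that held any peak. Most of these bins, 690, held 1 isolated peak, 209 held 2, 49 held 3, 6 held 4 and 2 held 5. The variance of the number per bin was 1.11 times its mean for isolated peaks and 13.4 times for the others. The rule itself limits this number, since isolated peaks cannot lie within 100 kb of each other.

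Isolated peaks lay in less crowded bins than the others, but few were alone there. The bin of an isolated peak held a median of 6 peaks, against 18 for the other peaks, and the median over all bins that held a peak was 8. Of the isolated peaks, 177 (13.7%) were alone in their bin and 578 (44.8%, 42.1 to 47.6%) lay in bins of 1 to 5 peaks, whereas 711 (55.2%, 52.4 to 57.9%) shared it with 5 or more other peaks and 353 (27.4%, 24.97 to 29.9%) with 10 or more. Of the others, 93.4% lay in bins of 6 or more peaks and 77.8% in bins of 11 or more. Counted around each peak, a median of 5 other peaks (interquartile range 2 to 10) lay within 500 kb of an isolated peak and 18 (11 to 29) within 500 kb of another peak.

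**Figure D5:**
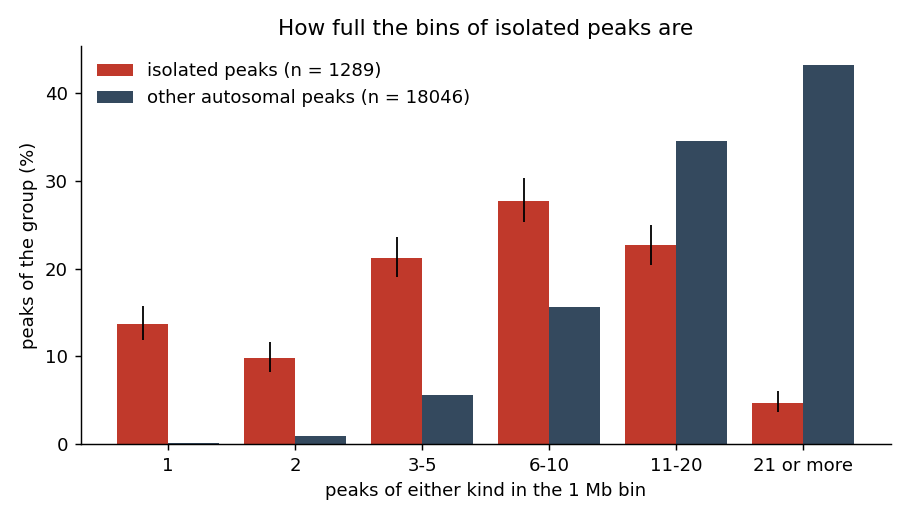
Percentage of isolated peaks (red, with exact binomial 95% intervals) and of the other autosomal peaks (dark blue) by the number of peaks of either kind in their 1 Mb bin. Isolated peaks are most frequent in bins of 6 to 10 peaks (27.8%), and 4.73% lie in bins of 21 or more, which hold 43.2% of the others.

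A full bin could hold an isolated peak at its edge. The fullest bin with an isolated peak was that from 79 to 80 Mb on chromosome 10, with 64 peaks, chosen for description after its value was seen. Its isolated peak, from 79017671 to 79018174, measured 504 bp and had its neighbours 137 kb and 114 kb away, the first of them in the bin before. It lay at the lower border of the bin, with the 63 other peaks of the bin beyond the gap of 114 kb. The bins with the most isolated peaks were moderately or thinly filled. The bin from 91 to 92 Mb on chromosome 13 held 5 isolated peaks among 9, and that from 38 to 39 Mb on chromosome 19 held 5 among 5. Bins with 4 lay on chromosome 1 from 179 to 180 Mb (4 peaks in all), chromosome 2 from 125 to 126 Mb (7 in all) and chromosome 8 from 127 to 128 Mb (10 in all). The order among bins with 4 is that of the chromosomes, not of a value.

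Isolated peaks in the fuller bins had a higher median width, in a split that was not among the planned comparisons. The medians did not rise steadily. They were 582 bp in bins of 1 peak, 608 bp in bins of 2 to 5 and 581.5 bp in bins of 6 to 10. In bins of 11 to 20 and of 21 or more peaks they were 639.5 and 641 bp. The 353 members in bins of 11 or more peaks had a median width of 640 bp (611 to 653 bp), and the 936 in bins of 1 to 10 peaks had one of 594.5 bp (579 to 612 bp). Narrow peaks made up 3.97% (2.18 to 6.56%) of the first group and 8.33% (6.64 to 10.3%) of the second, and wide peaks 14.2% (10.7 to 18.2%) and 10.3% (8.39 to 12.4%). The intervals of the narrow shares did not overlap and those of the medians overlapped by 1 bp. The same bins gave a smaller contrast in the other peaks, with medians of 608 bp (604 to 611 bp) and 594 bp (586 to 601 bp) and narrow shares of 4.79% (4.45 to 5.16%) and 6.02% (5.30 to 6.80%).

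In bins of equal filling, the raised share of narrow peaks was not seen everywhere. In bins of 2 to 5 peaks it was 7.73% (5.31 to 10.8%) in isolated peaks and 7.84% (6.36 to 9.52%) in the others. In bins of 6 to 10 peaks it was 8.94% (6.19 to 12.4%) and 5.26% (4.47 to 6.15%), and in bins of 11 to 20 peaks it was 4.45% (2.39 to 7.49%) and 5.21% (4.67 to 5.79%). Among peaks alone in their bin it was 8.47% (4.82 to 13.6%) of 177 isolated peaks and 5.88% (0.149 to 28.7%) of 17 others, and in bins of 21 or more peaks it was 1.64% (0.0415 to 8.80%) and 4.46% (4.01 to 4.94%). The isolated peaks had the higher share in 2 of these 5 classes, and the intervals left each other out in the bins of 6 to 10 peaks only. The share thus moved with how full the bin was, and the part of this in the difference over all bins was not tested.

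Some neighbours of isolated peaks along the chromosome were isolated as well. Of the 2578 neighbours of isolated peaks, counted on both sides, 946 (36.7%) were isolated too. Both neighbours were isolated for 177 members (13.7%), 1 neighbour for 592 (45.9%) and neither for 520 (40.3%). In runs of 2 or more consecutive isolated peaks lay 769 members (59.7%), in 296 runs. Neighbouring members share the distance between them, so any neighbour of a member has no peak within 100 kb on the facing side. The members hold 2578 such sides, and the 4984 peaks isolated on 1 side only hold 1 each. The counts of isolated neighbours thus follow largely from the rule, and an excess beyond it was not tested.

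The longest runs held 6 isolated peaks, and 5 runs reached this length. On chromosome 3 a run extended from 5860551 to 9038827, with widths of 333 to 801 bp and a median of 506 bp. On chromosome 4 a run from 66488624 to 73898551 covered 7.41 Mb and began with the remote peak of 357 bp described above. Its widths of 357 to 1699 bp had a median of 891.5 bp. On chromosome 11 a run was packed into 1.22 Mb (30548985 to 31771144), with nearest neighbours at 122 to 183 kb and a median width of 539.5 bp. The other runs of this length lay on chromosomes 13 and 19, with median widths of 608.5 and 772.5 bp. Runs of equal number thus differed in extent and in the width of their peaks, and with 6 peaks each these medians carry little precision.

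Some close groups of peaks also stood alone. When neighbours separated by gaps of up to 1000 bp were first joined into 1 region, 1371 regions were isolated by the same rule, and 81 of them consisted of 2 or more listed peaks. Of these 81, 76 were pairs, and their median length was 1539 bp. All 1289 isolated peaks remained isolated after joining. On the X chromosome, which the rule leaves out, 82 of 312 peaks would have been isolated (26.3%, 21.5 to 31.5%), a higher share than on any autosome. Peaks per Mb were not computed for X, and over the autosomes the share was higher where peaks were sparser, as the rule would make it.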

How the data were processed

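The authors deposited 1 list of Runx3 peaks with chromosome, start and end, without a header or scores. Reads of 50 bp, from chromatin fixed in 1% formaldehyde and sheared to about 200 bp, were aligned with ELAND, per the labels' protocols, and the submitters' processing notes name CASAVA 1.8.2 and mm9. Not given in the sources used here are the peak caller, its threshold and the use of the control library. A weak peak near a listed one, if not called, would make that peak isolated, and a lower threshold could change the members.

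Starts count from 0 in the list and from 1 in the text. Midpoints, distances, widths and bins were computed with Python 3.11.15, numpy 2.4.6 and pandas 2.3.3. Spans run from the first to the last peak of a chromosome. Shares have exact binomial 95% intervals and densities exact Poisson ones (scipy 1.17.1), and medians have intervals from order statistics. The marking of isolated peaks was tested on simulated lists. Named regions are the 5 most remote, 5 widest and 3 narrowest members, the 2 on each side of the limit, the 5 bins with the most members and 3 of the longest runs. The members and lists were chosen with earlier results of these data known. Genes and motifs were not analysed here.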

Additional observations from a re-analysis of the deposited data

How the results depend on the processing

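Of 63 recomputed values, 51 stayed within 1.5 times the count or within the 95% interval of the value reported, and 12 moved. Of the 63, 19 were the ratio of narrow shares with 1 autosome left out each, which reuse most of the same peaks. Judging chromosome ends by 1 neighbour could add at most 38 peaks to the count, and adding X at most 312. Neither could take the count beyond 1.5 times. Distances between facing ends differ from those between midpoints by peak widths only. None of the recomputed values turned a direction whose interval left out 1. The ratios of median widths and of wide shares had intervals that included 1, so a turn could not be recorded for them or for counts. Nor could one be recorded for the share before the middle of the spans. By construction, the highest share isolated over the lowest cannot fall below 1. Likewise, the density of the lowest autosome relative to all cannot rise above 1. A turn was thus possible only for the ratios of narrow shares and of median widths beyond and up to 200 kb. Other limits changed the number of isolated peaks by construction, to 2882 at 50 kb, 515 at 200 kb and 145 at 500 kb, whereas distances between facing ends, joined peaks, the ends of chromosomes, X or the wider peaks alone gave 1282 to 1609. The wider peaks alone kept 652 of the 1289 members and added 957. In this shortened list of 9672 peaks the share isolated was 16.6%, against 6.67% in the full list. The number of isolated peaks was judged by its count, not by this share. At 200 kb the ratio of median widths was 0.969. The ratio of the shares wider than 1000 bp was 1.08, and it was 0.901 for a width over 1500 bp, 0.869 when gaps of up to 1000 bp were joined and 0.920 at 200 kb. Joining lengthens regions by construction: the shares wider than 1000 bp were then 16.3% in isolated regions and 18.8% in the others. The cause of the other changes was not tested. The highest share isolated on any autosome was 3.53 times the lowest, and 2.28 times at 50 kb. Isolated peaks alone in their bin numbered 56 with bins of 2 Mb and 406 with bins of 0.5 Mb, by construction. At 50 kb chromosome 7 had 0.758 times the isolated peaks per Mb of all autosomes, and 47.9% of isolated peaks lay before the middle of the spans. The ratio of the shares narrower than 400 bp ranged from 1.16 (50 kb) to 1.63 (200 kb). Settings for narrow peaks, densities, positions and distance classes were chosen after seeing the data. No paired analysis was possible because the study holds 1 Runx3 library and 1 control library. Weak sites that the calling missed cannot be counted, since reads per peak are unknown.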
